A study of Mus musculus with 9 samples.

Results

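The 44 genes described here are interferon-stimulated genes, a named set of transcripts that cells switch on when interferon signals reach them. They were taken by symbol from a list of interferon-induced genes and their regulators. No measured value stood in the rule, but the list was chosen with earlier results of these data known. All 44 were found among the 52550 Ensembl genes of the count table. Their mRNA was measured by poly(A) RNA sequencing in the spinal cord of 9 adult female C57BL/6N mice, 3 in each of 3 groups, on day 7. The Sham group had a laminectomy without injury and is labelled as the control. The SCI group had the laminectomy followed by a contusion of the thoracic cord and intraperitoneal injections of the solvent dimethyl sulfoxide. The SCI+FIPI group had the same contusion and daily intraperitoneal injections of FIPI, a small-molecule inhibitor of phospholipase D, dissolved in that solvent. A tissue segment around the injury, not a sorted cell type, was sequenced, and the Sham mice carried no solvent injection that the sources used here describe.

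Interferons are secreted proteins best known as antiviral signals. Type I interferons bind the receptor formed by Ifnar1 and Ifnar2, whose kinases Jak1 and Tyk2 phosphorylate Stat2. This factor joins Irf9 in a complex that binds the interferon-stimulated response element, a short DNA motif in the promoters of its target genes. Interferon gamma acts through Ifngr1 and Ifngr2 and a different promoter motif, the gamma-activated site. In the central nervous system, microglia and infiltrating macrophages, astrocytes and endothelial cells can all express such targets, and injury can induce them without a virus through sensors of nucleic acids.

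The promoters of 8 members are shown because these genes carry the main contrasts described further on. Bst2 and Oas3 rose most steeply after injury, Isg15 and Rsad2 varied strongly between injured mice, Ifit1 did not pass the test, Igtp held both motifs, Trim25 had the smallest p-value between the injured groups, and Cmpk2 was lower in each injured mouse than in each Sham mouse. Each line gives the 150 bases before the transcription start as RefSeq places it in GRCm38.p6, 5′ to 3′ on the strand of the gene. Capitals mark matches to the letters searched for on both strands. For the interferon-stimulated response element these were GAAA, any 2 bases and GAAA again, which reads TTTC, any 2 bases and TTTC on the other strand. For the gamma-activated site they were TTC, any 3 bases and GAA, which reads alike on both strands. Overlapping matches merge into 1 run of capitals.
Isg15: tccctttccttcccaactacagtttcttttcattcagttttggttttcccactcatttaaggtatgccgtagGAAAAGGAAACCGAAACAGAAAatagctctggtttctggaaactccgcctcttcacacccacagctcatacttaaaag
Oas3: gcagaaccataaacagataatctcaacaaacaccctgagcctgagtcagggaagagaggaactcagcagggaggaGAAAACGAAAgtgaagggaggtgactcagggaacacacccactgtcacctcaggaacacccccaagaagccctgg
Rsad2: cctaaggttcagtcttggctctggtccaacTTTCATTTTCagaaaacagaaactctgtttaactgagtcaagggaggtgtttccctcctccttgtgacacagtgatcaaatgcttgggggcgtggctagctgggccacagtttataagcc
Bst2: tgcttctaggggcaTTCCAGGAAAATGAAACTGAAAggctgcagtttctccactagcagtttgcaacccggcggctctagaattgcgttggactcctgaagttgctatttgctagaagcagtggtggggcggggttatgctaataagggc
Ifit1: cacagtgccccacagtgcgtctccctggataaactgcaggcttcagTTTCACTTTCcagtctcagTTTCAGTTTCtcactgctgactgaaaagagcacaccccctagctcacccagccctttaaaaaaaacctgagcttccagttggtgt
Igtp: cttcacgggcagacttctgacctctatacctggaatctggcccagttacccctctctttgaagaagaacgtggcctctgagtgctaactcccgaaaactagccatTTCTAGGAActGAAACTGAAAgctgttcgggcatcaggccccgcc
Trim25: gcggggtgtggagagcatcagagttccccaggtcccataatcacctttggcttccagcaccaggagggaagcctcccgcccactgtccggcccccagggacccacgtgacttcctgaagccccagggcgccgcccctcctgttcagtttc
Cmpk2: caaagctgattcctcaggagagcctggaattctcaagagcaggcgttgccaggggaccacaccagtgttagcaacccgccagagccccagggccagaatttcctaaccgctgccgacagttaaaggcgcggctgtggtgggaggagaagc
These windows lie, in the same order, as follows: Isg15 at chr4:156200819-156200968 on the minus strand, Oas3 at chr5:120777660-120777809 on the minus strand, Rsad2 at chr12:26456453-26456602 on the minus strand, Bst2 at chr8:71537473-71537622 on the minus strand, Ifit1 at chr19:34640739-34640888 on the plus strand, Igtp at chr11:58199406-58199555 on the plus strand, Trim25 at chr11:88999253-88999402 on the plus strand and Cmpk2 at chr12:26469065-26469214 on the plus strand. In Isg15, 3 overlapping response-element matches began 78, 72 and 66 bases before the start. Bst2 held 2 such matches, at 130 and 124 bases before the start, and a gamma-activated match at 136 bases that overlapped the first of them. Igtp likewise held both, with the response-element match 34 bases and the gamma-activated match 45 bases before the start. The windows of Trim25 and Cmpk2 had neither set of letters.

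Promoter windows of 300 bases, from 250 before to 50 after the start, were at hand for 33 of the 44 members in RefSeq. The response-element letters were found on either strand in 19 of these 33 genes, or 57.6%, against 3.99% of all 27025 genes with a window. The gamma-activated letters were found in 9 of 33, or 27.3%, against 9.55% of all genes, and 6 members held both. The response-element letters were present in 12 of the 21 members with a window that passed the test for a rise after injury, or 57.1%, and in 7 of the 12 that did not, or 58.3%. The gamma-activated letters were present in 7 of those 21, or 33.3%, and in 2 of those 12, or 16.7%. The 5 guanosine triphosphatases and the 3 sensors with a window all held the response-element letters, whereas 1 of 4 transcription factors did. These counts describe letters in a window and were not tested.

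The deposited total was 20806000 to 24582377 counts per mouse, and 18699 genes had enough counts to be tested, among them all 44 members. Values below are CPM, the counts as a share of the library total after trimmed-mean scaling, on a common scale for all mice, and levels are compared between genes only as FPKM, which also divides by exonic length. A gene was taken as changed when its log2 fold change was at least 0.5 in size and its p-value from the edgeR quasi-likelihood fit, adjusted by Benjamini-Hochberg over all tested genes, was under 0.05. An exact permutation test of 3 against 3 mice cannot give a two-sided p below 0.1, so no single gene could pass such a test. Members of the list are not independent of each other, and p-values measure only the spread between the mice of this series. In bulk tissue, fewer cells of a type and less RNA per cell cannot be told apart. Markers of neurons, oligodendrocytes and astrocytes were abundant in all 9 libraries, with summed levels of at least 2693, 22750 and 7828 CPM.

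Most of the 44 genes were higher after injury. In the SCI group 28 members, or 63.6%, rose against Sham, 0 fell and 16 did not pass both limits, while 24.4% of all tested genes rose and 22.5% fell. The median log2 fold change over the members was 1.11, against −0.00 over all genes, and 42 of 44 estimates were above 0. The 2 negative estimates were those of Ifit3b and of Cmpk2, and the latter had an unadjusted p under 0.05 and was called lower by DESeq2 and limma-voom. Every SCI mouse lay above every Sham mouse in 25 members, or 56.8%, against 35.6% of all genes. Every SCI mouse lay below every Sham mouse in 1 member, Cmpk2, against 35.0% of all genes. Read per length, Ifitm3 with a mean of 161 FPKM, Bst2 with 72.1 FPKM, Lgals3bp with 69.6 FPKM and Ifi27 with 54.8 FPKM had the highest levels in the SCI group, and Ifi44 had the lowest at 0.743 FPKM.

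**Figure D1:**
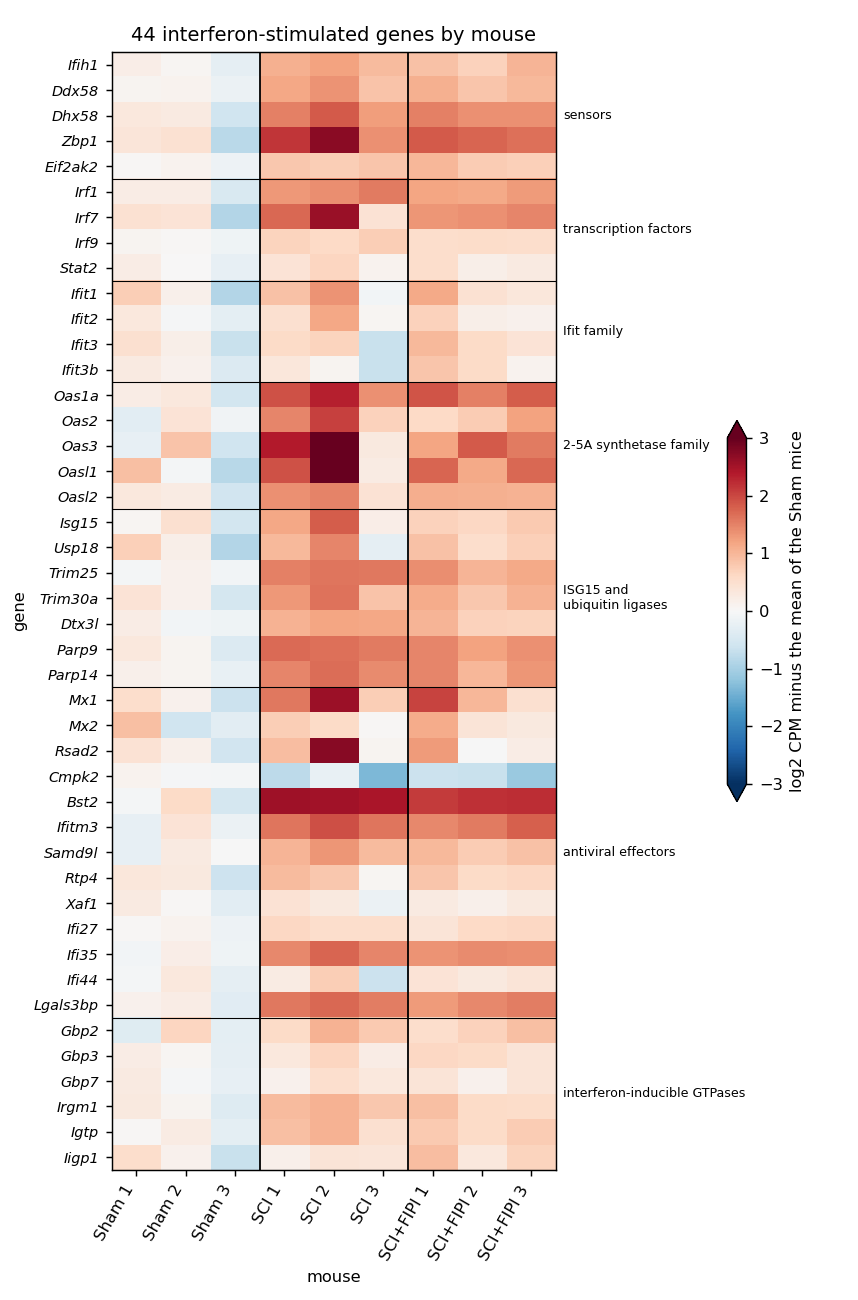
Each row is 1 of the 44 genes in its role group and each column 1 mouse, and the colour is log2 CPM minus the mean of the 3 Sham mice, with red above and blue below that mean and values beyond ±3 shown at the end of the scale. Red fills most of the SCI and SCI+FIPI columns, Cmpk2 is blue in each injured mouse, and SCI mouse 3 is paler than SCI mouse 2 in many rows.

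The sensors rose as a group, 5 of 5. These proteins detect foreign or misplaced nucleic acid in the cytoplasm. Zbp1, which binds nucleic acids in the Z conformation and can start necroptosis, had 3.35, 3.54 and 1.42 CPM in the Sham mice, 11.6, 17.2 and 6.75 CPM in the SCI mice and 9.43, 8.86 and 8.22 CPM in the SCI+FIPI mice. Its lowest SCI mouse was thus above its highest Sham mouse, and it rose by 2.11 on the log2 scale (SE 0.414, adjusted p = 0.00234). Eif2ak2, the kinase PKR that halts translation on binding double-stranded RNA, had the smallest rise of the 5 and one of the tightest. It went from 16.3, 17.1 and 14.4 CPM in Sham to 27.7, 26.4 and 28.4 CPM in SCI and stood at 31.5, 26.7 and 26 CPM with FIPI, a log2 fold change of 0.79 for SCI against Sham (SE 0.0942, adjusted p = 3.09e-06). The RNA helicases Ifih1 (MDA5) and Ddx58 (RIG-I) rose by 1.08 and 1.14, and Dhx58 (LGP2), their regulator, by 1.52.

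Of the transcription factors, 3 of 4 rose. Irf7, the factor that amplifies type I interferon production, showed the largest estimate, 1.72, with a wide error (SE 0.6, adjusted p = 0.0418). Its values were 14.9, 14.4 and 5.77 CPM in Sham, 35.7, 65.1 and 14.6 CPM in SCI and 27.2, 27.9 and 29.6 CPM in SCI+FIPI. SCI mouse 3 fell inside the range of the Sham mice, while the 3 SCI+FIPI mice lay close together above that range. The call for Irf7 was lost in 8 of the 9 fits that left out 1 mouse, all but the fit without SCI mouse 3. Irf1, a factor induced mainly by interferon gamma and by inflammatory cytokines, rose by 1.40 (SE 0.151, adjusted p = 2.59e-06). Irf9, the DNA-binding subunit of the type I complex, rose by 0.66 and varied little, from 28.4, 27.3 and 24.6 CPM in Sham to 42.1, 40.4 and 44.6 CPM in SCI and 38.8, 39.2 and 38.5 CPM in SCI+FIPI. Stat2, its partner, did not pass: Sham mice had 51.1, 44.3 and 36.9 CPM, SCI mice 57.9, 67.9 and 47.1 CPM and SCI+FIPI mice 63.2, 49.3 and 53.1 CPM, for a log2 fold change of 0.39 after injury (SE 0.165, adjusted p = 0.0683).

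None of the 4 Ifit genes passed the test. The Ifit1 protein binds viral RNA that lacks host cap methylation, and the genes of the family are widely used as readouts of type I interferon. Ifit1 had 13.4, 8.9 and 4.35 CPM in Sham, 14.8, 20.6 and 7.64 CPM in SCI and 17.7, 11.1 and 10.2 CPM in SCI+FIPI. The 3 groups overlapped, with a log2 fold change of 0.70 for SCI against Sham (SE 0.516, adjusted p = 0.272) and a 95% interval from −0.54 to 1.94. Ifit3, the member of this family with the highest FPKM, had 37.5, 30.1 and 16.8 CPM in Sham, 39.5, 42.5 and 16.8 CPM in SCI and 52.6, 39.5 and 35.4 CPM in SCI+FIPI. Ifit3b, its close copy, had 13.9, 12.5 and 8.69 CPM in Sham, 14.5, 12.2 and 7.26 CPM in SCI and 20.4, 17 and 12.5 CPM in SCI+FIPI. In both genes SCI mouse 3 lay at or below the lowest Sham mouse. Of the different 50-base stretches of the longest Ifit3 transcript, 51.2% also occur in the other copy. Of those of the longest Ifit3b transcript, 45.0% also occur in other genes, so that the separate values of Ifit3 and Ifit3b are uncertain. Ifit2 had an estimate of 0.62 (SE 0.325, adjusted p = 0.134).

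In the family of 2-5A synthetases, which make the second messenger that activates the RNA-degrading enzyme RNase L, and of the related Oasl proteins, 4 of 5 genes rose. Oas3 had the largest log2 fold change of the 44 genes, 2.72, and also the largest error (SE 0.948, adjusted p = 0.0414). It was measured at 1.29, 2.89 and 1 CPM in Sham, 8.43, 24.1 and 1.94 CPM in SCI and 3.67, 5.85 and 4.74 CPM in SCI+FIPI. SCI mouse 2 was 12.4 times SCI mouse 3, and the latter lay within the Sham range. As for Irf7, the call was lost in 8 of the 9 fits without 1 mouse, all but the one without SCI mouse 3. Oasl1, an inhibitor of Irf7 translation, followed the same order with 5.54, 16.1 and 1.69 CPM in the SCI mice and did not pass, at 2.31 (SE 0.88, adjusted p = 0.0554). Oasl2, the family member with the highest FPKM, had 26.8, 25.8 and 14.6 CPM in Sham, 56.2, 60.5 and 29.3 CPM in SCI and 46.4, 45.2 and 44.7 CPM in SCI+FIPI, a rise of 1.12 (SE 0.332, adjusted p = 0.0219). Here the injured mice all exceeded the Sham mice, and the call was lost without Sham mouse 3, SCI mouse 1 or SCI mouse 2. Oas1a rose by 1.90 and Oas2 by 1.49. Of the different 50-base stretches of the longest Oas1a transcript, 57.6% also occur in Oas1g, so that the value of Oas1a is uncertain.

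Of the genes for Isg15, its protease and interferon-linked ubiquitin ligases, 6 of 7 rose. Isg15 is a ubiquitin-like protein that is attached to other proteins. It had 5.17, 6.95 and 3.34 CPM in Sham, 11.2, 17.6 and 5.65 CPM in SCI and 8.05, 7.59 and 8.56 CPM in SCI+FIPI. SCI mouse 3 again overlapped with Sham, and the rise of 1.16 passed narrowly (SE 0.426, adjusted p = 0.0453) and was lost in 7 of the 9 fits without 1 mouse, all but those without Sham mouse 2 or SCI mouse 3. Usp18, which removes Isg15 from proteins and damps the type I receptor, did not pass, with 7.38, 5.01 and 2.38 CPM in Sham, 8.85, 12.4 and 3.67 CPM in SCI and 8.27, 6.44 and 7.42 CPM in SCI+FIPI. Its log2 fold change was 0.77 (SE 0.519, adjusted p = 0.232).

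The ligases and ADP-ribosyltransferases of that group behaved more evenly. Parp9, which pairs with the ligase Dtx3l, had 11.3, 9.55 and 6.81 CPM in Sham, 29.6, 28.5 and 26.6 CPM in SCI and 25, 21.1 and 23.5 CPM in SCI+FIPI, and rose by 1.62 (SE 0.142, adjusted p = 3.34e-07). Dtx3l rose by 1.13, Parp14 by 1.53 and Trim30a by 1.25. Dtx3l and Parp9 lie head to head on opposite strands and their annotated exons overlap, so that a part of their reads may be shared. Trim25, the ligase that activates Ddx58 signalling, went from 19.3, 21.9 and 18.8 CPM in Sham to 57.2, 61.3 and 59.7 CPM in SCI, a rise of 1.57 (SE 0.0936, adjusted p = 2.57e-09). By the SD of log2 CPM no other member had so small a spread among the SCI mice, while by the ratio of the highest to the lowest SCI mouse that of Bst2 was smaller.

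**Figure D2:**
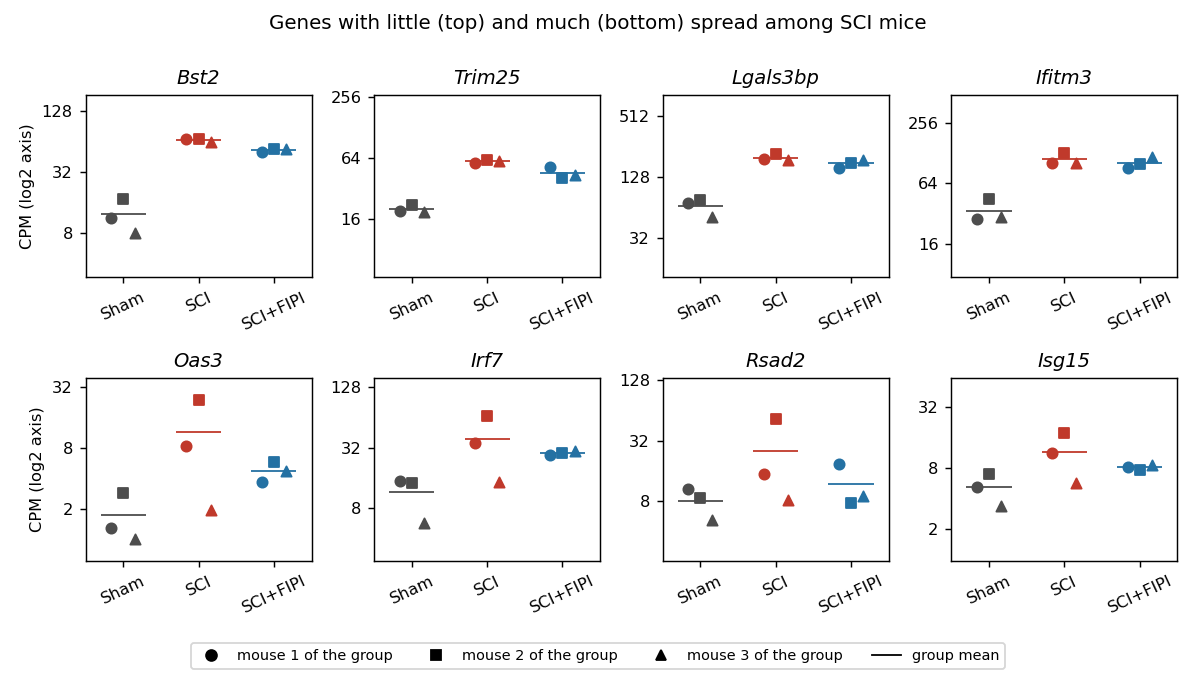
CPM of 8 members on a log2 axis, with 1 point per mouse (circle, square and triangle for mice 1, 2 and 3 of a group) and a line at the group mean. In the top row (Bst2, Trim25, Lgals3bp and Ifitm3) the SCI mice lie together above every Sham mouse, and in the bottom row (Oas3, Irf7, Rsad2 and Isg15) SCI mouse 2 is highest and SCI mouse 3 is lowest, with Oas3 spanning 1.94 to 24.1 CPM.

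Among the 13 antiviral effectors, 7 rose. Bst2, the tetherin protein that holds budding virus at the membrane, had 11.2, 17.4 and 7.98 CPM in Sham, 67.5, 67.2 and 63.3 CPM in SCI and 49.8, 53.2 and 54 CPM in SCI+FIPI. Its rise of 2.44 (SE 0.229, adjusted p = 3.24e-05) came with SCI mice that differed by a factor of 1.07. Ifitm3, which blocks the entry of viruses at endosomal membranes, had 28.4, 44.5 and 29.8 CPM in Sham, 102, 129 and 102 CPM in SCI and 91, 98.4 and 116 CPM in SCI+FIPI, and rose by 1.69 (SE 0.195, adjusted p = 0.000113). Lgals3bp, a secreted galectin-binding protein, rose by 1.59, Ifi35 by 1.57, Samd9l by 1.09 and Ifi27 by 0.55. The mRNA of Mx1, of a family of dynamin-like antiviral GTPases, rose by 1.78 with an adjusted p of 0.047. Mx1 lost the call in 6 of the 9 fits without 1 mouse. These left out any Sham mouse, SCI mouse 1, SCI mouse 2 or SCI+FIPI mouse 2. Whether these mice make a working Mx1 protein was not measured. Ifi27 lost its call without Sham mouse 3.

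The other 6 effectors did not pass. Rsad2 (viperin), an enzyme that makes a chain-terminating nucleotide, had 10.5, 8.72 and 5.22 CPM in Sham, 14.8, 52.5 and 8.31 CPM in SCI and 19, 7.76 and 9.14 CPM in SCI+FIPI. A single injured mouse stood far above the rest, and the estimate of 1.63 had an SE of 0.783 and an adjusted p of 0.111. Cmpk2, a mitochondrial nucleotide kinase whose gene neighbours Rsad2, ran the other way. It had 47.1, 42.6 and 41.9 CPM in Sham, 25.3, 37.8 and 17.3 CPM in SCI and 27.9, 27.6 and 20.3 CPM in SCI+FIPI, so that each injured mouse was below each Sham mouse. The log2 fold change of −0.71 for SCI against Sham had an adjusted p just above the limit (SE 0.272, adjusted p = 0.0538). It passed in 5 of the 8 alternative analyses that kept all mice and without SCI mouse 2, where it was −1.04. The estimates of Rtp4 (0.60), Mx2 (0.34), Ifi44 (0.21) and Xaf1 (0.19) had 95% intervals that included 0, and their groups overlapped. Mx2 is annotated as a polymorphic pseudogene.

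Of the 6 interferon-inducible GTPases, proteins that act in the defence against intracellular microbes and that respond above all to interferon gamma, 3 rose. Irgm1 had 21.5, 18.5 and 13.4 CPM in Sham, 33.8, 36.1 and 30.6 CPM in SCI and 32.9, 25.9 and 25.5 CPM in SCI+FIPI, and rose by 0.92 (SE 0.16, adjusted p = 0.000451). Igtp rose by 0.82. Gbp2, which has the highest FPKM of the group, had 8.86, 17.9 and 9.32 CPM in Sham, 16.9, 23.5 and 19.8 CPM in SCI and 16.6, 18.4 and 21.2 CPM in SCI+FIPI. Sham mouse 2 lay inside the SCI range, and the rise of 0.74 (adjusted p = 0.0447) was lost in 8 of the 9 fits without 1 mouse, all but the one without Sham mouse 2. Iigp1 did not pass, with 10.2, 7.73 and 4.39 CPM in Sham, 7.84, 9.14 and 9.11 CPM in SCI and 13.3, 8.73 and 11.2 CPM in SCI+FIPI and a log2 fold change of 0.23 (SE 0.269, adjusted p = 0.471). Gbp3, at 0.40, had an adjusted p of 0.0187 but stayed under the fold limit, and Gbp7 had 0.31 (adjusted p = 0.0658).

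The members varied between mice of 1 group more than most genes did. The median SD of log2 CPM over the members was 0.361 in Sham, 0.292 in SCI and 0.164 in SCI+FIPI, against 0.122, 0.133 and 0.113 over all tested genes. SCI mouse 2 was the highest of its group in 34 of 44 members, against 30.4% of all genes, and SCI mouse 3 was the lowest in 33, against 35.0% of all genes. The full order, SCI mouse 2 above mouse 1 above mouse 3, was found in 27 members, or 61.4%, against 14.7% of all genes. Sham mouse 3 was the lowest of its group in 39 members, or 88.6%, against 33.8%, and SCI+FIPI mouse 1 was the highest in 30, or 68.2%, against 35.5%. As these mice were singled out after their values were seen and the genes share their libraries, no test is given. Without SCI mouse 3 there were 33 members that rose, without SCI mouse 2 there were 22 with 1 fall, Cmpk2, and without Sham mouse 3 there were 21. Of the 28 members that rose, 21 held their call in each of the 9 fits that left out 1 mouse and in each of the 8 other analyses.

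Divided by spread among the SCI mice, at limits set after the values were seen, the members were placed in a steady, a middle and a variable class. In the 16 genes with an SD under 0.2, among them Bst2, Trim25, Parp9, Irf9 and Lgals3bp, the highest SCI mouse was 1.07 to 1.30 times the lowest, and 14 rose. In the 16 genes with an SD of 0.5 or more, among them Oas3, Oasl1, Rsad2, Irf7, Mx1, Isg15 and the 4 Ifit genes, that ratio was 2.00 to 12.4, and 7 rose. The spread enters the test, so the difference in calls follows in part from the division. Of the 12 genes between these limits, among them Oas1a, Dhx58 and Stat2, 7 rose. The median log2 fold change was 1.27 in the steady, 0.78 in the middle and 1.14 in the variable class.

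**Figure D3:**
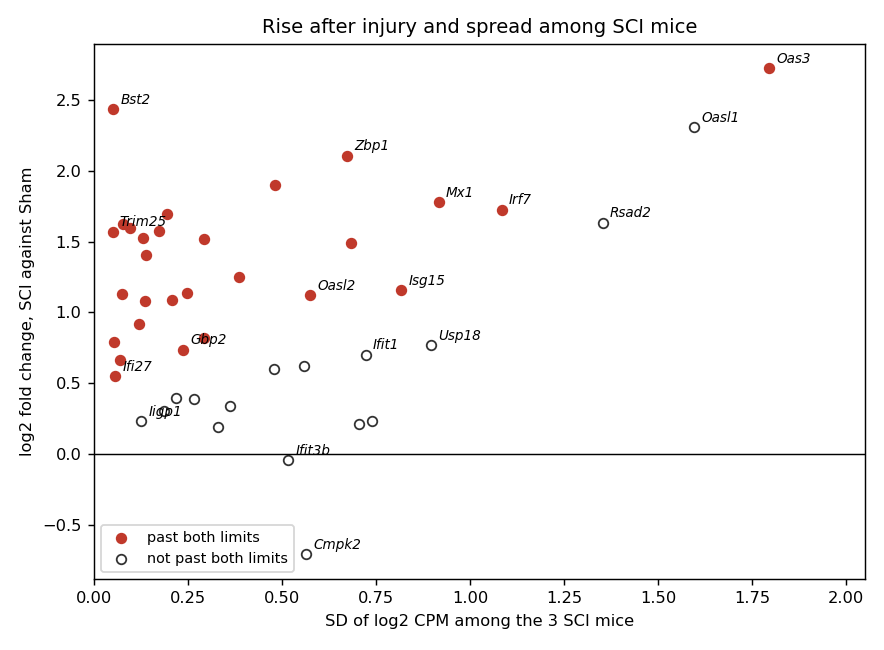
Each point is 1 of the 44 genes, with the SD of log2 CPM among the 3 SCI mice across and the log2 fold change of SCI against Sham upwards, and filled points passed both limits. Bst2, at an SD of 0.0517, and Oas3, at 1.795, have similar fold changes at opposite ends of the spread, and Cmpk2 lies below 0.

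FIPI treatment moved none of the 44 genes past both limits. In SCI+FIPI against SCI, 0 members rose and 0 fell, while 2.36% of all tested genes rose and 0.695% fell. With shares this low over all genes, a count of 0 in 44 is not particular to the set. DESeq2 and limma-voom also called 0. At an unadjusted p under 0.05 there were 2 members with the main edgeR fit, 5 with DESeq2 and 6 with limma-voom. Other edgeR settings gave 2 to 10, the latter with no filter on counts. The share of all genes with an unadjusted p under 0.05 was not counted, so these counts are not read as an effect. At an adjusted p under 0.05 alone there was 1 of the 44 members, against 1800 of all 18699 tested genes. The estimates leaned downwards, with 35 of 44 below 0 and a median of −0.18 against −0.00 over all genes. The sign of the median depended on SCI mouse 2: without that mouse the median was 0.013, and without SCI mouse 3 it was −0.30. Some single members stayed below 0 in each of the 9 fits without 1 mouse, such as Trim25 (−0.49 to −0.30) and Bst2 (−0.36 to −0.30). Others, such as Irf7 (−0.84 to 0.17), changed sign. Every SCI+FIPI mouse lay below every SCI mouse in 8 members, or 18.2%, near the 14.5% of all genes, and above in 0, against 15.7%.

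The 5 members with the smallest p-values between the injured groups were Trim25, Dtx3l, Parp9, Parp14 and Irf9, all of the steady class. Trim25 stood at 52.4, 40.5 and 43.9 CPM with FIPI, below the 57.2 to 61.3 CPM of the SCI mice and above the Sham mice, a log2 fold change of −0.38 (SE 0.0887, adjusted p = 0.0172) with a 95% interval from −0.57 to −0.19. It passed the limit on the adjusted p, as 3.58% of all genes did downwards, but not that on the fold change, and no other member did so. Dtx3l had 25.6, 28.2 and 27.5 CPM in SCI and 25.2, 19.9 and 19.8 CPM in SCI+FIPI, a log2 fold change of −0.33 (SE 0.111, adjusted p = 0.0753). Parp14 had 39.6, 45.6 and 38.5 CPM in SCI and 39.6, 28.7 and 35.9 CPM in SCI+FIPI, at −0.25 (adjusted p = 0.234). Parp9 was at −0.28 (adjusted p = 0.202) and Irf9 at −0.13 (adjusted p = 0.284). SCI+FIPI mice lay wholly below SCI mice in Trim25, Dtx3l, Parp9 and Irf9, and in Irf1, Bst2, Ifi35 and Lgals3bp.

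The variable genes had the largest estimates and gave the least information on FIPI. Oas3 was at −1.27 with a 95% interval from −3.31 to 0.76, and Rsad2 at −1.08 with an interval from −2.91 to 0.75. Ifit3b, at 0.55, was the highest of the 9 positive estimates, with an interval from −0.14 to 1.24. In 12 members the interval lay within 0.5 of 0 on both sides, as for Eif2ak2 (−0.17 to 0.22), Ifi27 (−0.18 to 0.15) and Irf9 (−0.28 to 0.02), so that at this level of confidence any difference in them was below the fold limit. In 11 members the interval reached −1 or lower, so that a 2-fold fall could not be told from no difference with 3 mice a group.

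**Figure D4:**
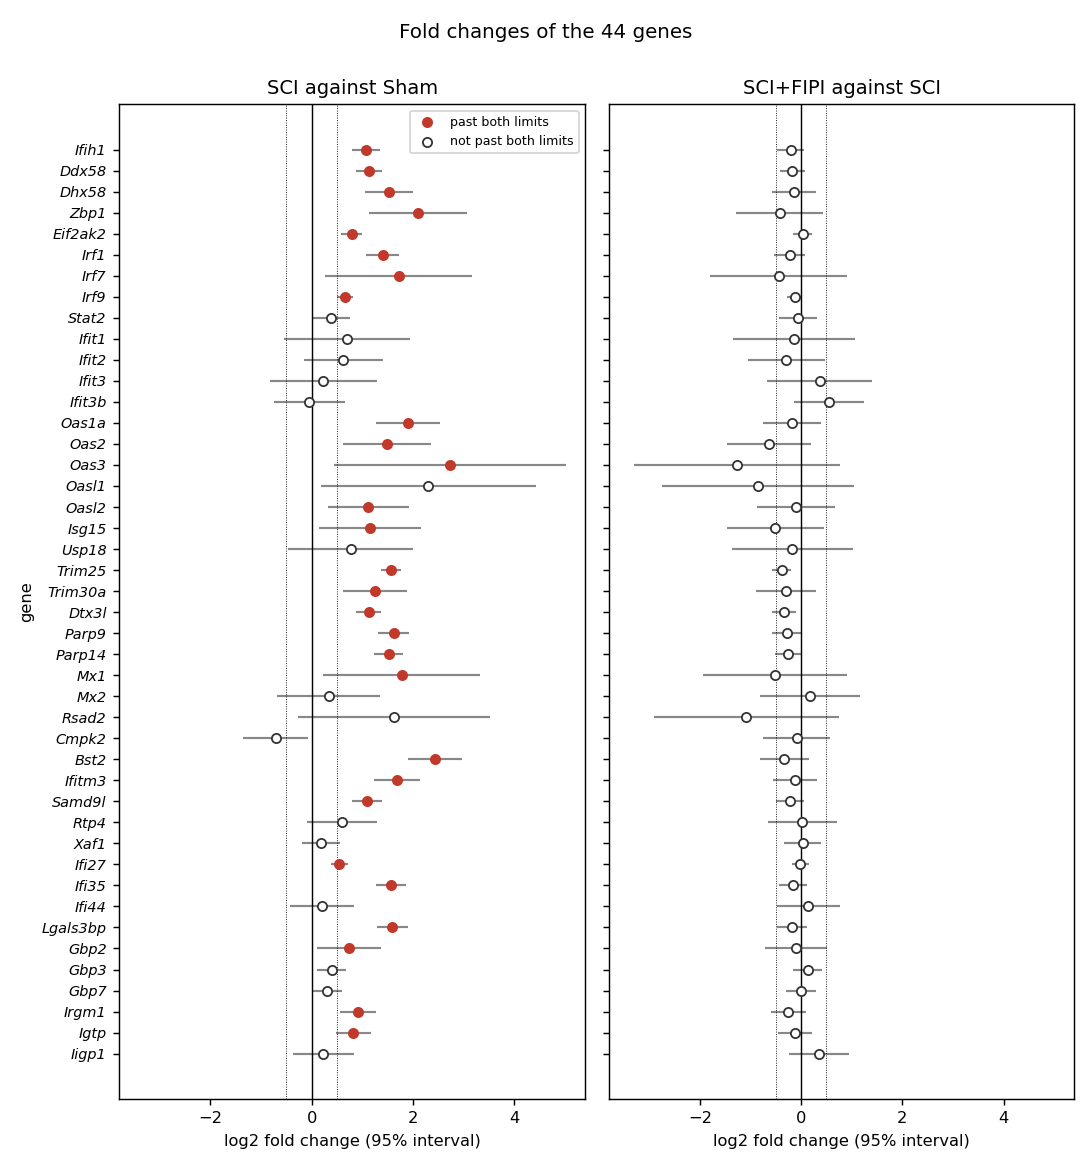
Log2 fold changes of the 44 genes with 95% intervals for SCI against Sham (left) and SCI+FIPI against SCI (right), with dotted lines at ±0.5 and filled points past both limits. On the left 28 points are filled, all above 0, and on the right 0 are, with the widest intervals for Oas3, Oasl1 and Rsad2.

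Measured against Sham, the FIPI-treated injury left most of the set raised. In SCI+FIPI 23 members, or 52.3%, rose and 1, Cmpk2, fell, while 21.2% of all tested genes rose and 17.0% fell. The median log2 fold change was 0.81. All SCI+FIPI mice lay above all Sham mice in 29 members, or 65.9%, against 33.4% of all genes, and below in 1, against 32.9%. This comparison shares the Sham mice with SCI against Sham and is no independent repeat of it. Bst2 stood at 2.10, Oas1a at 1.72, Zbp1 at 1.68 and Ifitm3 at 1.57 above Sham, next to 2.44, 1.90, 2.11 and 1.69 in the SCI group. Cmpk2 was at −0.80 (SE 0.274, adjusted p = 0.0405), next to −0.71 in the SCI group. The call for Cmpk2 was lost in 7 of the 9 fits without 1 mouse, all but those without SCI mouse 2 or SCI mouse 3, and that for Oasl2 in 6, and 17 of the 24 calls held in each of the 9. The 4 Ifit genes again did not pass, at estimates of 0.33 to 0.60. Gbp3 rose by 0.52 (adjusted p = 0.00423) in SCI+FIPI and had not passed in SCI, and the difference between the injured groups, 0.13, was not significant (adjusted p = 0.596).

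The upstream pathway was read from a separate list of 51 genes. Interferon genes themselves were near absent. Of 21 listed, 16 had 0 counts in all 9 mice, and the other 5 had 15 counts in total, none above 3 in a mouse. Ifnb1 had 1 count, Ifng had 0, and Ifnz had 9 counts spread over 6 mice, so that no interferon could be tested. A count of 0 in a library of this size does not show that the protein was not made at an earlier time or by a few cells.

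The receptors, by contrast, were well measured. Of 6 receptor genes 5 rose after injury. Ifnar1 rose by 0.98, Ifnar2 by 1.54, Ifngr1 by 1.42, Ifngr2 by 0.90 and Il10rb, a subunit of the interferon lambda and interleukin-10 receptors, by 2.57. Ifnlr1, the other lambda subunit, fell by 1.17 (SE 0.27, adjusted p = 0.00142), from 3.31, 2.03 and 1.88 CPM in Sham to 0.964, 0.992 and 1.22 CPM in SCI. With FIPI the 5 raised receptor genes were lower and Ifnlr1 was higher in every mouse than in SCI, and none passed both limits. Over all tested genes, 14.5% lay wholly below SCI and 15.7% wholly above. Of the 30 tested genes of the whole pathway list, 15 lay wholly below. Among the receptor genes, Ifngr2 was at −0.39 (adjusted p = 0.00846), Ifngr1 at −0.30 (adjusted p = 0.0215) and Il10rb at −0.49 (adjusted p = 0.0365), each under the fold limit.

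Among the signal transducers, Tyk2 rose by 0.87, whereas Jak1 (−0.01) and Jak2 (0.09) did not pass. Of 14 genes that induce interferon, 11 rose, with Tlr7, an endosomal receptor for single-stranded RNA, highest at 2.94. Tlr7 was also the one gene of the pathway list, among 30 tested, that FIPI moved past both limits, as 0.695% of all tested genes fell. It had 8.1, 6.09 and 5.06 CPM in Sham, 41.2, 54.5 and 51.2 CPM in SCI and 37.4, 28.2 and 27.7 CPM in SCI+FIPI, a log2 fold change of −0.66 between the injured groups (SE 0.166, adjusted p = 0.0389). This call was not followed in the fits that left out 1 mouse. Of 5 negative regulators 3 rose, among them the cytokine-signalling inhibitor Socs3 and the phosphatase Ptpn6, each by 2.71. Traf3, an adaptor upstream of interferon, was at −0.48 (adjusted p = 4.51e-05), just inside the fold limit, and Pias1 at −0.17 (adjusted p = 0.0337).

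A further list held 52 interferon-induced genes outside the 44 and was also chosen with earlier results of these data known. It showed a rise after injury and 0 calls with FIPI. After injury 39 rose and 1 fell, with a median log2 fold change of 1.24. The steepest rises were Ifi207 at 3.53, Ifi30, a lysosomal reductase of antigen processing, at 3.46, and Slfn9 at 2.64. Adar, the editing enzyme for double-stranded RNA, fell by 0.84 (SE 0.0812, adjusted p = 3.69e-07), from 128, 111 and 136 CPM in Sham to 75.2, 71.2 and 62.8 CPM in SCI. Oas1c (−0.14) and Cxcl9 (0.16), a chemokine tied closely to interferon gamma, did not pass and were under 3 CPM in every mouse. With FIPI 0 of the 52 passed both limits against SCI, as 2.36% of all tested genes rose and 0.695% fell. The median was −0.24. An unadjusted p under 0.05 was found in 13, and the share of all genes at that limit was not counted. At an adjusted p under 0.05 alone there was 1 of the 52, against 1800 of all 18699 tested genes. The lowest estimates were those of Ifi205 (−1.20), Ifi209 (−0.93) and Ifi203 (−0.82), and the highest those of Apol9a (0.67), Apol9b (0.29) and Adar (0.21), none past the limits. The order of the mice was alike here, with SCI mouse 2 highest in 36, SCI mouse 3 lowest in 32 and Sham mouse 3 lowest in 38 of the 52. Over all genes these shares were 30.4%, 35.0% and 33.8%.

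Markers of several cell types also differed between the groups. The 10 microglia and macrophage markers all rose, by a median of 2.45, and their summed level was 451 to 665 CPM in Sham, 6881 to 8123 CPM in SCI and 4928 to 6437 CPM in SCI+FIPI. The summed level of the 44 members was 530 to 741 CPM, 1138 to 1620 CPM and 1159 to 1263 CPM in the same groups. Against SCI, SCI+FIPI mice lay wholly below in 8 of the 10 markers, against 14.5% of all genes, with a median of −0.41 and 0 past both limits. Within the SCI group the markers did not follow the full order of the members. By the median log2 difference from the Sham mean, SCI mice 1, 2 and 3 were at 2.37, 2.63 and 2.53 for the markers. For the members they were at 1.03, 1.35 and 0.61, so that mouse 2 was highest in both. Counted by gene, the 2 sets differed more. SCI mouse 3, the lowest for 33 of the 44 members, was the highest for 7 of the 10 markers, and SCI mouse 2 for 3. Over all genes these 2 mice were highest in 34.9% and 30.4%. In Sham both sets had mouse 3 lowest, in 10 of 10 markers, against 33.8% of all genes. In SCI+FIPI mouse 1 was highest in 7 of 10 markers and 30 of 44 members, against 35.5% of all genes. There mouse 2 was lowest in 7 of 10 and 20 of 44, against 30.4%. The part of cell numbers in the rise of the members was not tested.

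The other lists gave the following values. The 6 markers of resident microglia had a summed level of 219 to 254 CPM in Sham, 543 to 616 CPM in SCI and 437 to 527 CPM in SCI+FIPI. These sums did not describe every marker. After injury 3 of the 6 rose past both limits and 1 had a negative estimate, −0.57. In SCI+FIPI against SCI, 3 estimates were above 0 and 3 below, with 0 past both limits. The 10 neuron markers all fell after injury, by a median of 1.38 on the log2 scale, and were higher with FIPI than without it in every mouse, 5 of them past both limits. Over all tested genes, 15.7% were higher with FIPI in every mouse and 2.36% rose past both limits. The 7 fibroblast and pericyte markers all rose, with a median of 2.82. Endothelial markers rose in 4 of 6. Astrocyte markers rose in 3 of 6 and fell in 1, and oligodendrocyte markers fell in 3 of 6. None of the 8 neutrophil markers passed. Markers of T and NK cells, the main makers of interferon gamma, summed to 2.84 to 6.18 CPM over all mice, and of the 9 only 3 had enough counts to be tested, with 0 passing. B cell markers summed to 1.56 to 8.08 CPM, and 2 of 4 fell.

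**Figure D5:**
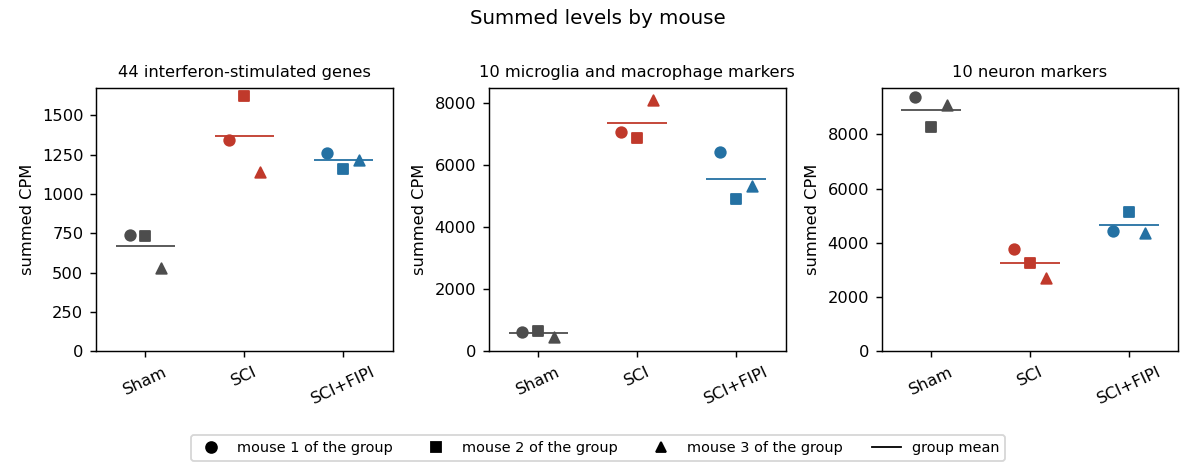
Summed CPM of the 44 interferon-stimulated genes, of 10 microglia and macrophage markers and of 10 neuron markers, with 1 point per mouse and a line at the group mean, on axes that start at 0. The macrophage markers rise from at most 665 to at least 6881 CPM after injury and the 44 genes from at most 741 to at least 1138 CPM, and SCI mouse 3 (triangle) is lowest for the 44 genes and highest for the macrophage markers.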

How the data were processed

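Raw gene counts, deposited by the authors for 52550 Ensembl genes in 9 spinal cord libraries, were the only values used. The authors' processing notes name GRCm38 and R 4.2.3, while the aligner, the counter and its strand setting are not given in the sources used here. Positions and exonic lengths were taken from GENCODE M21 on GRCm38, which holds 52403 of the identifiers, and promoters from RefSeq. Groups came from the sample titles.

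Counts were filtered by group (filterByExpr), scaled by trimmed means and fitted with edgeR 4.0.16 (robust quasi-likelihood, 6 residual degrees of freedom, biological coefficient of variation 9.30%) over all 9 mice in R 4.3.3. The limits of 0.5 on the log2 scale and 0.05 follow the study's methods, which name no test. CPM are shown per mouse, and log2 CPM used a prior count of 2. The scripts were tested on simulated counts. Files showed no pair of libraries alike within sampling noise.

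The members and all gene lists were chosen with earlier results of these data known. Every member may be named. Values per mouse are given, in each role group, for the largest and smallest fold change and the highest FPKM in SCI, and for the 5 smallest p-values under FIPI; Rsad2, Oasl1 and the members that SCI mouse 3 sets apart were added after their values were seen. Pathway and other interferon genes were named by the 3 largest changes in either direction, with the receptors. A result for 1 gene of the pathway list is not reported here. DESeq2 1.42.0, limma-voom 3.58.1, other scalings and filters, a replicate block and leaving out each mouse were tried as alternatives.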

Additional observations from a re-analysis of the deposited data

How the results depend on the processing

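The number of members past both limits in SCI against Sham, 28, ranged from 23 to 31 over the alternatives that kept all mice and from 21 to 33 over the fits that left out 1 mouse, and the median log2 fold change from 1.04 to 1.13 and from 0.90 to 1.17. In SCI+FIPI against Sham, 24 ranged from 21 to 30 and from 18 to 27, and the median, 0.81, from 0.76 to 0.83 and from 0.71 to 0.94. In SCI+FIPI against SCI the count stayed at 0 except under the adjusted p alone, where it was 1, Trim25, and with the replicate number as a block, where it was 1, Ifit3b, at a log2 fold change of 0.57. Leaving out 1 mouse gave 0 each time. The median there ran from −0.18 to −0.15, and from −0.30 to 0.013 when 1 mouse was left out, turning to 0.013 without SCI mouse 2.

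Mice of different groups share only a number. Deviations of same-numbered mice correlated at −0.0726 to 0.108, and the block brought the calls to 30 in SCI against Sham and 30 in SCI+FIPI against Sham.

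With 3 mice a group, fold changes of genes that vary like Oas3 have errors near 1 on the log2 scale, and an absence of a call there carries little information. The cause of the spread between mice was not tested. Strand and the handling of reads that fit several genes were not given, which bears on Ifit3, Ifit3b, Oas1a, Dtx3l and Parp9.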
